A study of Mus musculus with 6 samples.

Results

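Expression of 10 genes for salt transporters and channels was followed in the colon of mice lacking Islr. They were chosen by name, for their part in moving chloride, bicarbonate, sulfate, sodium and potassium across the colon wall. The 10 were picked with earlier results of these data known, so no contrast below is independent support. They are the anion exchanger Slc26a3, the sulfate transporter Slc26a2, the sodium-proton exchanger Slc9a3, the epithelial sodium channel subunits Scnn1a, Scnn1b and Scnn1g, the chloride channel Cftr, the sodium-potassium-chloride cotransporter Slc12a2, the colonic proton-potassium pump Atp12a and the sodium bicarbonate cotransporter Slc4a4. These 10 genes had 14 of the 56605 probes on the array, found through the RefSeq accession of each probe. Of the 14 probes, 12 passed the filter on dim probes and were tested, among 35351 tested probes, and they stood for 9 of the 10 genes.

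Each of 6 male mice gave 1 colon sample and 1 array. The control group held 3 mice and the Islr knockout group held 3 mice. The source labels say that the mice of both groups drank water with 3.5% dextran sulfate sodium (DSS), an agent that injures the colon epithelium, over 5 days and then recovered for 1 day. The treatment field of the same labels names no treatment, so the DSS course rests on the source labels alone. No group without DSS was analysed here, and every difference below is between genotypes within injured and recovering colon. The age and strain of the mice, and whether Islr was deleted in all cells or in one lineage, are not given in the sources used here. The design text speaks of a flow separation before lysis without naming a sorted population. Islr encodes a secreted immunoglobulin superfamily protein with leucine-rich repeats that is known from stromal cells.

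Absorptive cells at the surface of the colon take up sodium and chloride through paired sodium-proton and chloride-bicarbonate exchange, and in the distal colon also through the aldosterone-regulated epithelial sodium channel. Crypt cells secrete chloride: the cotransporter Slc12a2 loads it across the basolateral membrane and Cftr lets it out at the apical membrane, with bicarbonate supplied in part by Slc4a4. Loss of absorptive transport is a known feature of colitis, and it contributes to diarrhoea.

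Values are log2 intensities relative to the 75th percentile of each array, so a value of 0 is the brightness of the spot at that percentile. They compare arrays for 1 probe and do not rank different genes. A spot that the scanner software marked as non-uniform or as an outlier was left out of group means and tests, and its value is still given and named as marked. Marked spots are kept in list sums, in the epithelium means, and in counts of overlap, array order and spread. A difference is the knockout mean minus the control mean, and it is called when limma's p-value, adjusted over all 35351 tested probes by the Benjamini-Hochberg method, is under 0.05. Of all tested probes, 3.97% were called, 1.55% as higher and 2.42% as lower in the knockout.

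The probe for Islr itself read 1.57 (marked), 1.24 and 1.21 in the controls and -1.40, -0.93 and -1.31 in the knockouts, in the direction of the labels. Islr was 5.42-fold lower in the knockouts (log2 difference -2.44, SE 0.21, limma adjusted p = 0.0171), and it missed the threshold without knockout 3 (adjusted p = 0.058). The 75th percentile lay between 6353 and 7110 intensity units in the controls and between 4911 and 5820 in the knockouts. Between 69.4% and 75.4% of spots were well above background, and from 3.26% to 16.0% were marked. Among the brightest 10% of spots on an array, 10.7% to 56.8% were marked, with 46.0% on control 1 and 56.8% on knockout 1. All 6 arrays were on 1 slide, with the controls in one row and the knockouts in the other, so slide row and genotype cannot be told apart. Markers of colon epithelium were detected: all 10 epithelium markers and all 11 surface colonocyte markers were well above background on at least 1 array. Of the pancreas markers, Cpa1, Pnlip and Prss1 were well above background on no array, and Cela1 (12355 to 28909 intensity units), Ctrb1, Cel and Amy2a5 were so on all 6. Of the squamous markers, Sprr3 and Dsg3 were well above background on no array, Krt5 on 5 arrays, and Krt14, Krt4, Krt13 and Trp63 on all 6.

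Most of the transporter probes read higher in the knockout colon, but the changes passed the test for 1 gene, Slc4a4. In all, 10 of the 12 tested probes were higher in the knockout and 2 were lower, and 2 probes, both of Slc4a4, were called, beside 3.97% of all tested probes. At an unadjusted limma p under 0.05 there were 8 probes of 6 genes, all higher, beside 26.8% of all tested probes in either direction and 12.8% higher. For the same number, 8 probes of 6 genes, every knockout lay above every control, beside 17.1% of all tested probes, or 34.9% counting both directions. Of the 12 probes, 3 passed the filter only through the knockouts, the dimmer Slc26a2 probe and those of Cftr and Scnn1g, so that a high knockout value was part of their selection. Of the 9 probes well above background on all 6 arrays, 6 were higher at an unadjusted p under 0.05, beside 12.3% of all such probes, and 6 had every knockout above every control, beside 17.2%. The median log2 difference over the 9 tested genes, each taken by its brightest tested probe, was 2.47, against 0.01 over 16451 tested named genes, and it was also 2.47 over the 7 genes whose probe was well above background on all 6 arrays. Whether the samples were whole tissue or a sorted population is not clear from the labels and design text. In a sample of mixed cells, fewer cells of a type and less RNA per cell cannot be told apart, and this holds for every level below.

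**Figure D1:**
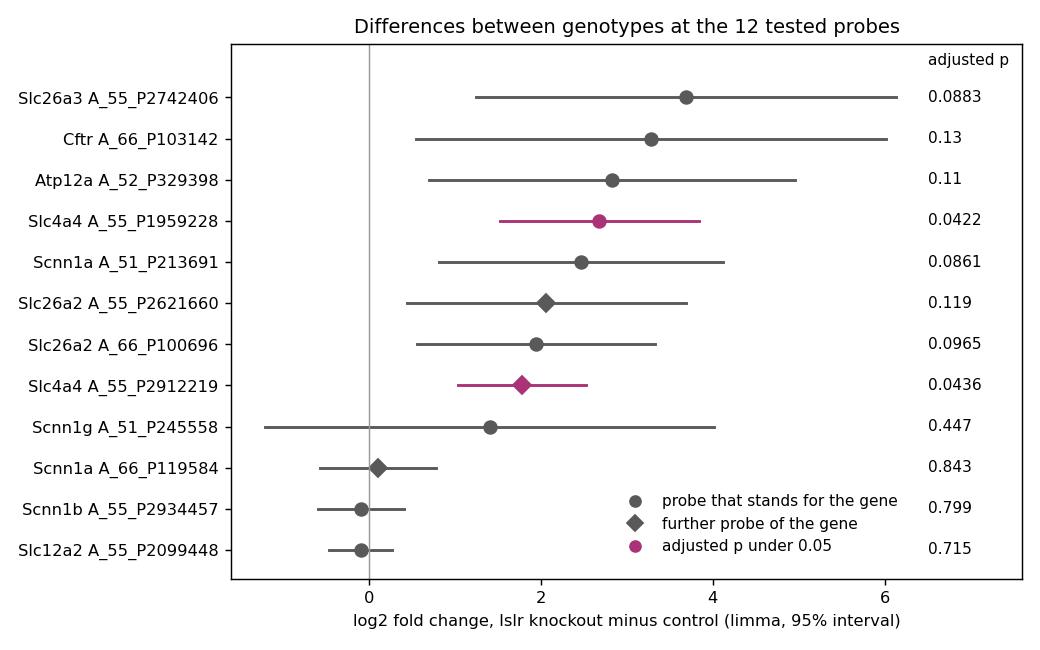
Log2 difference, Islr knockout minus control, for the 12 tested probes of the transporter genes, with 95% confidence intervals from limma. Both Slc4a4 probes were called, at 2.68 and 1.78. Scnn1b and Slc12a2, both at -0.10, and 1 of the Scnn1a probes, at 0.10, sit near 0.

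Slc26a3, the apical chloride-bicarbonate exchanger whose loss in humans causes congenital chloride diarrhoea, had the largest difference of the 12 tested probes. Its processed intensities were 8864, 834 and 2724 in the controls and 32873 (marked), 28717 and 32477 in the knockouts. On the log2 scale relative to the 75th percentile these were 0.48, -3.09 and -1.26 in the controls and 2.74 (marked), 2.30 and 2.49 in the knockouts. The knockouts lay close together and above all controls, whereas the controls spread over 11.9-fold, with control 2 lowest. The control mean was -1.29 ± 1.79 (SD, n = 3) and the knockout mean 2.40 ± 0.13 (SD, n = 2), a log2 difference of 3.69 (SE 0.98, 95% interval 1.25 to 6.13) or 12.9-fold. The limma adjusted p was 0.0883, so Slc26a3 was not called, although its unadjusted p was 0.0106. With the marked spot kept, the difference was 14.0-fold. It was called without control 1, at a log2 difference of 4.58 (adjusted p = 0.038), and was 2.79 (adjusted p = 0.124) without control 2.

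The promoter of Slc26a3 is shown because this exchanger had the largest difference and because its window has the lowest G and C content of those found for the members. The 250 bases before its RefSeq start were taken from RefSeq sequence of build GRCm38.p6, chr12:31437969-31438218, plus strand, 5′ to 3′, inside the annotated span of the gene. Capitals mark the letters TATAAA and GTTAAT:

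Slc26a3: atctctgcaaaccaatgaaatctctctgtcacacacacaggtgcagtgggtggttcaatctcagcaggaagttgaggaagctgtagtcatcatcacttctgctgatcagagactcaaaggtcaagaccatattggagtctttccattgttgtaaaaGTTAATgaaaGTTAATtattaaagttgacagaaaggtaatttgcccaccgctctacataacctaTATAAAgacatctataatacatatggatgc

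TATAAA stands 30 to 25 bases before the start, and 12.4% of 32851 mouse promoters of the same length hold it on either strand. GTTAAT, the hexamer at each end of the palindrome that HNF1 factors are known to bind, occurs at 94 to 89 and at 84 to 79 bases before the start, and 6.43% of promoters hold it. The window has 38.8% G and C, against a median of 52.4% over all promoters. These motifs and those named with them below were picked after the sequences had been read, and a match describes letters and not a bound site.

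Slc26a2, the sulfate transporter that is known to be abundant in colonocytes, was covered by 2 probes, both of which read higher in every knockout than in every control. The brighter probe, A_66_P100696, read 1.25, -1.04 and 0.16 in the controls and 2.63, 1.59 and 1.97 in the knockouts. Every knockout was above every control, by 0.34 at the nearest pair. The log2 difference was 1.94 (SE 0.58, 95% interval 0.56 to 3.33), 3.84-fold, with a limma adjusted p of 0.0965. The dimmer probe, A_55_P2621660, read -5.22, -7.54 and -6.45 in the controls, where it was well above background on 1 of 3 arrays, and -3.55 (marked), -4.20 and -4.48 in the knockouts. Its log2 difference was 2.06 (SE 0.65, 95% interval 0.44 to 3.69), with a limma adjusted p of 0.119. Neither probe was called with all arrays. Both were called without control 1, at 2.51 and 2.65, and without control 2 they were 1.36 and 1.49 (adjusted p = 0.200 for both). For the dimmer probe, leaving out control 1 left no control well above background, so its 2.65 is set against bounds alone.

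Atp12a, the catalytic subunit of the colonic proton-potassium pump that takes up potassium at the apical membrane of the distal colon, read 0.49, -2.24 and -1.13 in the controls. In the knockouts it read 2.74 (marked), 1.14 and 2.59. The groups did not overlap, and control 2 was again lowest and control 1 highest among the controls. The control mean of -0.96 ± 1.37 (SD, n = 3) and the knockout mean of 1.87 ± 1.03 (SD, n = 2) gave a log2 difference of 2.83 (SE 0.86, 95% interval 0.70 to 4.96), 7.10-fold. It was not called (limma adjusted p = 0.110). The difference was 8.70-fold with the marked spot kept. It was 3.55 on the log2 scale without control 1 (adjusted p = 0.048) and 2.19 without control 2 (adjusted p = 0.223).

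Slc9a3, also known as NHE3, the main apical sodium-proton exchanger of absorptive cells, was close to background. Its 1 probe gave intensities of 112, 92.5 and 106 in the controls, where it was well above background on 0 of 3 arrays, and 116, 137 and 131 in the knockouts, where it was so on 2 of 3. It was not tested in the fit, because neither group had it well above background throughout. The control values and that of knockout 1 are bounds rather than levels, so no difference is read from them and no fold is given.

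Slc4a4, the electrogenic sodium bicarbonate cotransporter that carries bicarbonate into epithelial cells from the blood side, rose in the knockout by both of its probes. The brighter probe, A_55_P1959228, read -0.95, -1.89 and -1.46 in the controls and 2.31, 0.70 and 0.73 in the knockouts. The groups lay 1.64 apart at the nearest pair, with knockout 1 above the other knockouts. The control mean was -1.43 ± 0.47 (SD, n = 3) and the knockout mean 1.25 ± 0.92 (SD, n = 3), a log2 difference of 2.68 (SE 0.48, 95% interval 1.53 to 3.83) or 6.41-fold, with a limma adjusted p of 0.0422. The dimmer probe, A_55_P2912219, read -1.80, -2.56 and -2.45 in the controls and 1.40 (marked), -0.71 and -0.27 in the knockouts. Its log2 difference was 1.78 (SE 0.30, 95% interval 1.04 to 2.52), 3.43-fold, with a limma adjusted p of 0.0436. With the marked spot of knockout 1 kept, the second probe differed by 2.41 and missed the threshold (adjusted p = 0.055).

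The call of Slc4a4 was lost with most single arrays left out. With 1 array left out, the brighter probe ranged from 2.15 to 2.96 on the log2 scale and was called in 2 of 6 fits, those without control 1 or knockout 2. Its adjusted p reached 0.112 without control 2. The dimmer probe ranged from 1.63 to 2.01 and was called in 1 of the 4 fits that could be made, the one without control 1. Without control 2 its adjusted p reached 0.116.

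**Figure D2:**
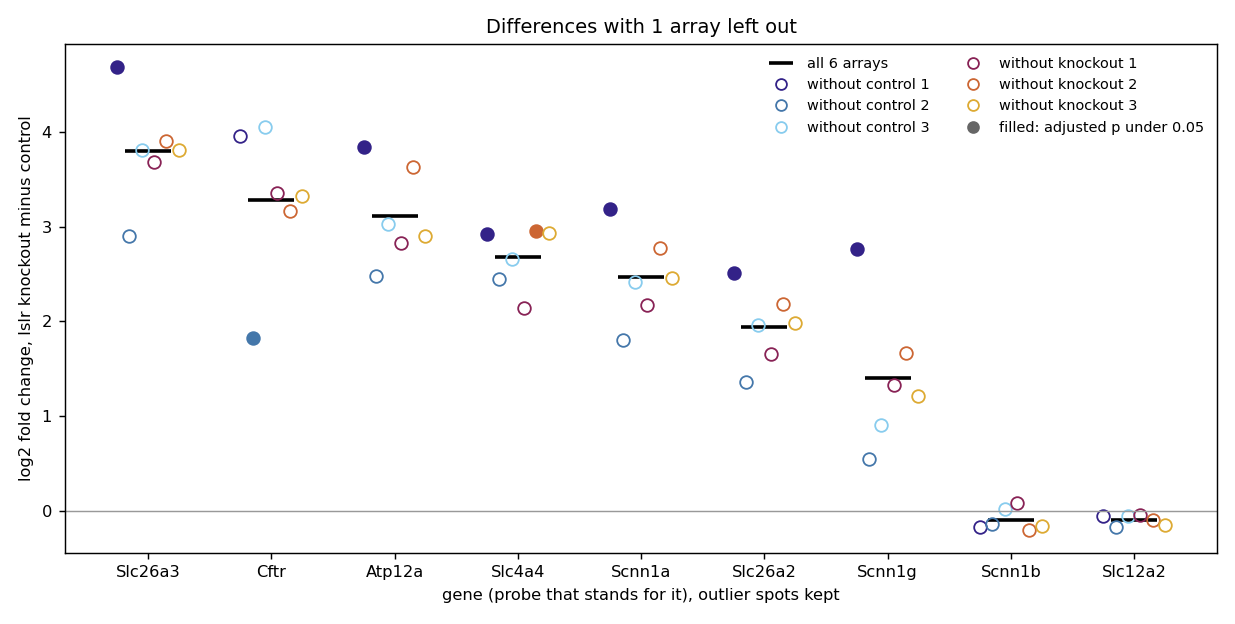
Log2 difference, Islr knockout minus control, of the probe that stands for each of the 9 tested transporter genes, with marked spots kept. Black bars are all 6 arrays, circles the fits without 1 array, and filled circles those with a limma adjusted p under 0.05. Scnn1g spans 0.55 to 2.76 and Cftr 1.82 to 4.06, whereas Slc4a4 spans 2.15 to 2.96.

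RefSeq gives Slc4a4 more than 1 start, and the files do not say which start a probe reads. The 250 bases before both starts in the promoter table are shown because they differ strongly in composition, with 82% and 48.8% G and C. The first window is chr5:88887010-88887259 and the second chr5:89027716-89027965, both GRCm38.p6 and plus strand, and both inside the annotated span of the gene:

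Slc4a4 first start: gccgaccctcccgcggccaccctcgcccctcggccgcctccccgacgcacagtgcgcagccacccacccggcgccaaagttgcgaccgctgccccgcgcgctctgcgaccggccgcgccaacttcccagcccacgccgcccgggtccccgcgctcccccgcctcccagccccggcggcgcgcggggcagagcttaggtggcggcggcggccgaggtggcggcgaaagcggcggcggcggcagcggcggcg

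Slc4a4 second start: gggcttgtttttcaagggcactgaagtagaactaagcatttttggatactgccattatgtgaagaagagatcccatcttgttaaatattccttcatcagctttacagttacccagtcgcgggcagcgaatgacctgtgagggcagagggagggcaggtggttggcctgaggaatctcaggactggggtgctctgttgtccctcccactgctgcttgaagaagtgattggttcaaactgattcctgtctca

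None of the searched motifs was found in either window. Besides TATAAA and GTTAAT, the searched letters were TGACGTCA and TGACATCA (cyclic AMP response elements), AGAACA (found at each end of the steroid receptor element), TTTATTG (CDX2) and GGGGCGGGG (the Sp1 GC box), on both strands. They were held by 1.55%, 2.93%, 16.1%, 4.2% and 10.4% of the 32851 promoters, in that order. No match says only that these letters are not in these windows.

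The 3 subunits of the epithelial sodium channel, which together form the amiloride-sensitive pore for sodium uptake, did not read alike. Scnn1a, the alpha subunit, had 2 probes with the same RefSeq accession that disagreed. Probe A_51_P213691 read -0.33, -3.11 and -1.88 in the controls and 1.29, 0.08 and 0.72 in the knockouts, with no overlap. Its log2 difference was 2.47 (SE 0.69, 95% interval 0.82 to 4.12), 5.53-fold, and it was not called (limma adjusted p = 0.0861). It was 3.19 without control 1 (adjusted p = 0.036) and 1.80 without control 2 (adjusted p = 0.183). Probe A_66_P119584 read -2.18, -1.43 and -1.18 in the controls and -1.62, -1.59 and -1.26 in the knockouts, so the groups overlapped, and control 2, the lowest array by the first probe, was not the lowest by this one. Its log2 difference was 0.10 (SE 0.28, 95% interval -0.57 to 0.78, limma adjusted p = 0.843), an interval that lies below the estimate of the first probe. Which probe reads the main Scnn1a transcript was not tested.

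Scnn1b, the beta subunit, read -3.26, -3.21 and -2.89 in the controls and -3.56, -3.01 and -3.08 in the knockouts. The groups overlapped and the spread was small, with a control mean of -3.12 ± 0.20 (SD, n = 3) and a knockout mean of -3.22 ± 0.30 (SD, n = 3). The log2 difference of -0.10 had a 95% interval of -0.60 to 0.40 (limma adjusted p = 0.799). The probe carries the accession NM_001272023, which names 1 of the RefSeq transcripts of the gene.

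Scnn1g, the gamma subunit, read -2.72, -7.15 and -6.44 in the controls, where only control 1 was well above background and the other values are bounds, and -3.88, -4.55 and -3.65 in the knockouts. Control 1 was the highest of all 6 arrays, while the other controls were the lowest. The control mean of -5.44 ± 2.38 (SD, n = 3) and the knockout mean of -4.03 ± 0.47 (SD, n = 3) differed by 1.41 (95% interval -1.20 to 4.02, limma adjusted p = 0.447). Without control 1 the log2 difference was 2.76 (limma adjusted p = 0.028), but that fit sets the knockouts against bounds alone. Without control 2 the difference was 0.55 (adjusted p = 0.823). Scnn1g and Scnn1b are neighbours on chromosome 7, and their promoter windows are shown because control 1 was the highest array for Scnn1g and not for Scnn1b. The windows are chr7:121734229-121734478 for Scnn1g and chr7:121864788-121865037 for Scnn1b, GRCm38.p6, plus strand, with the Sp1 GC box letters in capitals:

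Scnn1g: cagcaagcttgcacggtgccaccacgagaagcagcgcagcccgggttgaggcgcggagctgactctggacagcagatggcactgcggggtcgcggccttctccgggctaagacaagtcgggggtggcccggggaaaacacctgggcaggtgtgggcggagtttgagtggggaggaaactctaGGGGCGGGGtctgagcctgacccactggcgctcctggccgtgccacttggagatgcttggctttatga

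Scnn1b: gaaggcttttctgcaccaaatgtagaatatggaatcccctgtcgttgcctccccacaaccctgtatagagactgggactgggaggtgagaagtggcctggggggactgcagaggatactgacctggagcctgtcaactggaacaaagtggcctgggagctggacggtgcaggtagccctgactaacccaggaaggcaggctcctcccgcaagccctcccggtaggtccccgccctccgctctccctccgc

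The GC box letters stand 68 to 60 bases before the Scnn1g start, and none of the searched motifs was in the Scnn1b window. Both windows are rich in G and C, at 65.2% and 60.8%.

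**Figure D3:**
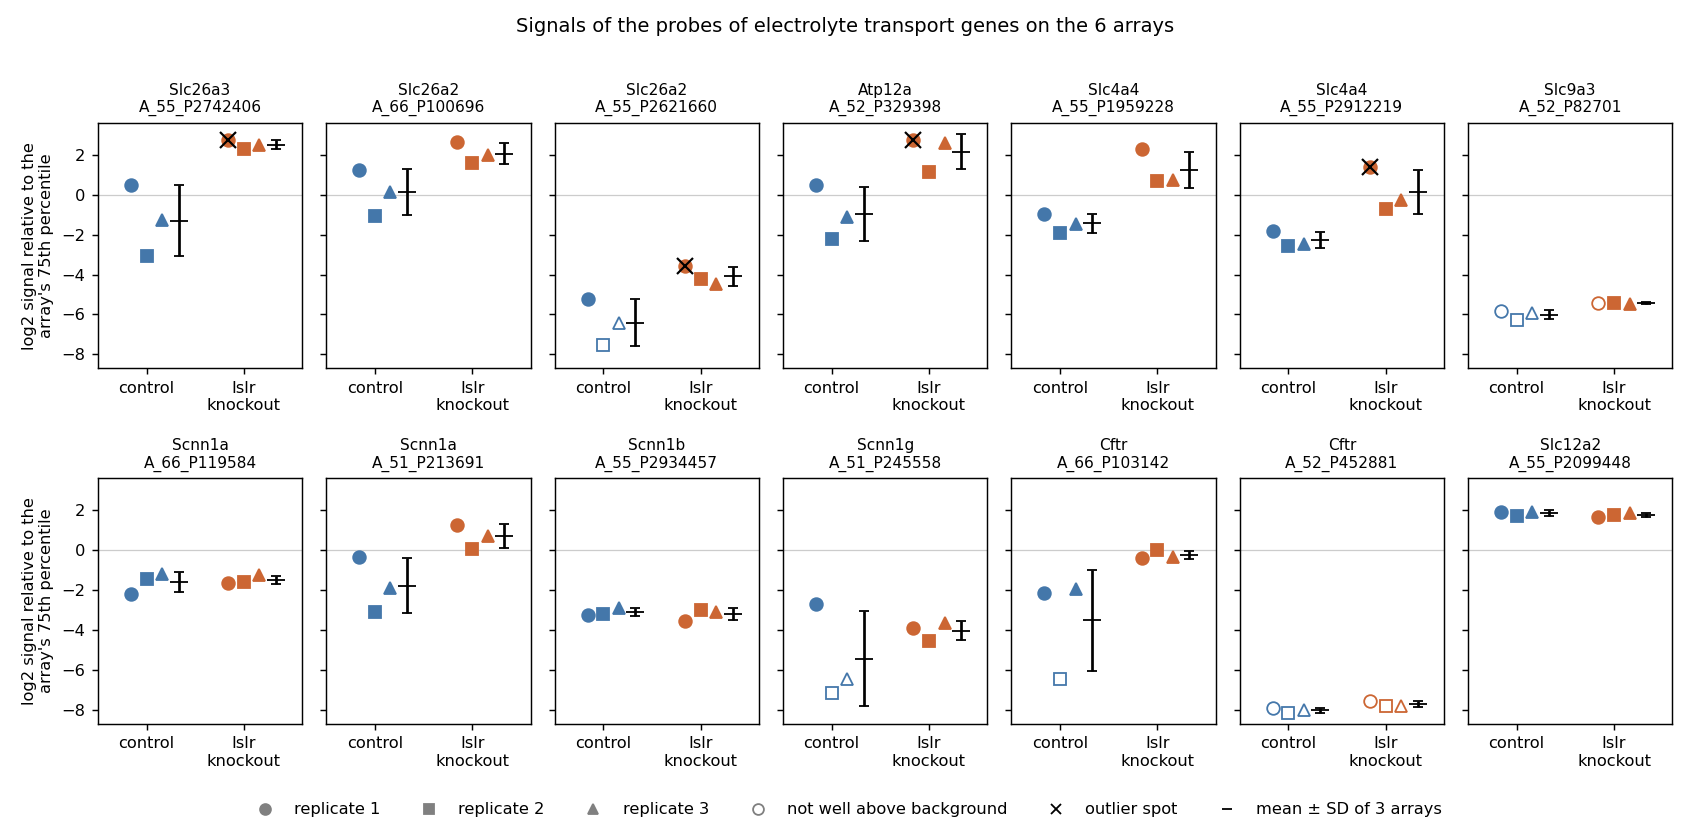
Log2 intensity relative to the 75th percentile of each array, for the 14 probes of the 10 transporter genes in 3 control and 3 Islr knockout mice, 1 symbol per array, with the mean ± SD of 3 arrays (marked spots, crossed, are kept in these means; open symbols are not well above background). Control 1 lies above the knockouts for Scnn1g, at -2.72, while control 2 is the low point for Cftr, at -6.44. Levels are comparable between arrays within a probe, not between probes.

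Cftr and Slc12a2 are the apical exit and the basolateral entry of secreted chloride, and their probes read differently. Cftr, the cyclic AMP-gated chloride and bicarbonate channel mutated in cystic fibrosis, read -2.16, -6.44 and -1.96 in the controls and -0.38, -0.0048 and -0.33 in the knockouts. Control 2 was not well above background, so its value is a bound, and all knockouts lay above all controls. The log2 difference was 3.28 (SE 1.14, 95% interval 0.55 to 6.01), with a limma adjusted p of 0.130, and no fold is given because it would include that bound. Without control 2 it was 1.82 (adjusted p = 0.057). The other Cftr probe, A_52_P452881, was not well above background on any of the 6 arrays, with intensities of 25.2 to 26.2, and was not tested.

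Slc12a2, also known as NKCC1, read 1.94, 1.71 and 1.93 in the controls and 1.66, 1.77 and 1.87 in the knockouts. Its difference had the smallest SE of the 12 tested probes, 0.15, and its level was 1.86 ± 0.13 (SD, n = 3) in the controls and 1.77 ± 0.10 (SD, n = 3) in the knockouts. The log2 difference of -0.10 had a 95% interval of -0.46 to 0.26 (limma adjusted p = 0.715), so a change beyond 0.46 in either direction lay outside it.

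The array-to-array pattern was shared by most members. Control 1 stood above control 3 and control 3 above control 2 in 9 of the 12 tested probes, beside 17.2% of all tested probes. Among the 8 probes whose groups did not overlap, 7 had that order. Control 2 was the lowest of all 6 arrays in 9 of the 12, and knockout 1 was the highest in 7. The spread between controls exceeded that between knockouts in 9 of the 12, against 48.7% of all tested probes.

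The same order was present in the epithelium markers. The mean log2 level of 10 epithelial genes, among them Epcam, Krt8, Cdh1 and Vil1, was taken with marked spots kept. It was 2.43, 0.43 and 1.98 in controls 1, 2 and 3 and 3.07, 2.73 and 2.68 in the knockouts, so control 2 was lowest and all knockouts lay above all controls. The summed linear level of the list was 20.6 to 61.1 times the 75th percentile in the controls and 72.6 to 95.2 times in the knockouts. All 8 of its tested members read higher in the knockout, 7 of them without overlap, beside 19% of all tested named genes. By limma 0 were called, and 2 were higher at an unadjusted p under 0.05, beside 12.8% of all tested probes. The surface colonocyte list behaved likewise, at 21.8 to 65.1 in the controls and 73.4 to 99.7 in the knockouts, with 9 of 9 tested members higher and 0 called (3 at an unadjusted p under 0.05).

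When each array was centred on the mean of the 10 epithelial genes instead of its 75th percentile, a choice made after the data were seen, the median of all tested probes moved to -1.23. On that scale 7 of the 12 transporter probes still had every knockout above every control, beside 1.61% of all tested probes. That share was 17.1% before this centring, so the shift of the median lowered it. The 7 were the probes of Slc26a3, Cftr and Atp12a, both Slc26a2 probes, A_51_P213691 of Scnn1a and the brighter Slc4a4 probe. Among them, Cftr and the dimmer Slc26a2 probe passed the filter only through the knockouts, so that a high knockout value was part of their selection. Scnn1b and Slc12a2 lay lower in every knockout, beside 51.4% of all tested probes. By limma on that scale, Slc26a3 was the 1 member called, with a log2 difference of 2.60 (adjusted p = 0.026), beside 8.48% of all tested probes in either direction. Of those calls over all probes, 2.33% were higher in the knockout, on a scale whose median lay at -1.23. Slc4a4 was not called, with 1.47 (adjusted p = 0.139) and 0.69 (adjusted p = 0.445) for its brighter and dimmer probe, and Cftr stood at 2.07 (adjusted p = 0.051).

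**Figure D4:**
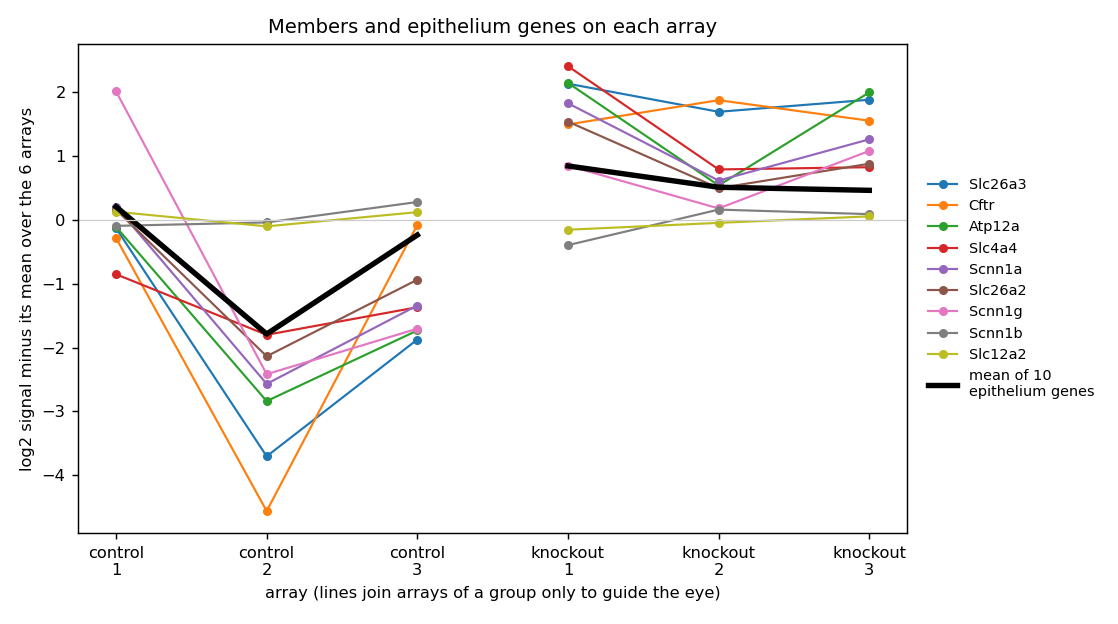
Log2 level in each array minus its mean over the 6 arrays, for the probe that stands for each of the 9 tested transporter genes and for the mean of the 10 epithelium markers (black line). The epithelium mean is 0.43 in control 2, the lowest, and 3.07 in knockout 1, the highest, before the mean over arrays is subtracted. Control 2 is also the low point for most of the transporters, while Scnn1b and Slc12a2 lie near 0 on all arrays.

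Markers of other cell types were read on the same arrays, and their part in the transporter differences was not tested. The 7 neutrophil markers had a median log2 difference of -3.73, with 5 called lower, beside 2.42% of all tested probes, and their sum was 27.8 to 29.2 in the controls and 18.5 to 20.3 in the knockouts. Of the 5, Mmp8 passed the filter only through the controls. The others, Csf3r at 0.17 and Trem1 at 0.18, were not called, and they make up most of that sum as the brightest of the list on all arrays, at 48391 to 57343 intensity units. The fibroblast sum was 36.8 to 42.8 in the controls and 24.8 to 33.0 in the knockouts, and the smooth muscle sum 44.3 to 55.4 and 61.0 to 71.6, with 0 of 7 and 0 of 6 tested members called by limma. At an unadjusted limma p under 0.05, 3 fibroblast members were lower and 2 smooth muscle members higher, beside 26.8% of all tested probes in either direction and 12.8% higher. Goblet cell markers overlapped between the groups, at 14.9 to 62.4 and 52.5 to 72.7, with 6 of 6 tested members higher and 0 called (0 at an unadjusted p under 0.05). The deep crypt secretory sum was 0.92 to 14.6 in the controls and 12.7 to 20.7 in the knockouts, and the crypt base sum 4.59 to 6.61 and 8.06 to 9.98. The crypt base markers were mixed, with 4 of 7 tested members higher and 3 lower: Smoc2, at -1.06 (limma adjusted p = 0.105), was lower in every knockout, and Axin2 (-0.55) and Lgr5 (-0.20) overlapped. Of these markers, Rnf43, a feedback inhibitor of Wnt signalling, was called, with a log2 difference of 2.11 (SE 0.34, limma adjusted p = 0.0349), and with 1 array left out it was called in 2 of 6 fits, those without control 1 or knockout 2 (adjusted p up to 0.091 in the others). The squamous and pancreatic sums were 8.29 to 10.6 and 1.95 to 3.08 in the controls, and 10.3 to 11.6 and 4.21 to 5.89 in the knockouts. Trp63 and Cela1 were the brightest of these lists on every array, so they weigh most in the sums. Of the tested squamous members 4 were higher and 1 lower, and of the pancreatic ones 2 were higher and 2 lower, with 0 called in either list.

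Position along the colon is another property that the transporters follow in normal tissue, since sodium channels and Atp12a belong to the distal colon. The sum over 6 distal colon homeobox markers was 3.83 to 5.08 in the controls and 6.56 to 16.2 in the knockouts. Prac1, also on that list, had no named probe on the array and is not part of the sum. All 6 tested members read higher and 0 were called by limma (2 at an unadjusted p under 0.05, beside 12.8% of all tested probes higher). These 2 were Hoxb13 at 2.41 (SE 0.62, adjusted p = 0.0738) and Hoxa13 at 1.33 (SE 0.38, adjusted p = 0.0908). Hoxd12 (0.84), Hoxd13 (0.21), Hoxd10 (0.18) and Hoxd11 (0.0087) overlapped between the groups. Hoxb13 was the brightest of the list on every knockout array, so it weighs most in that sum. The labels give no position for any sample, and its part in the differences was not tested.

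The members were then set beside 4 lists of other genes of the same transport systems, 74 genes of which 63 were tested. Of the 63, 43 were higher and 20 lower in the knockout, and 30 lay higher in every knockout than in every control, beside 19% of all tested named genes. Among the 30, Trpm6, Kcnj16 and Nr3c2 passed the filter only through the knockouts. In the 4 lists, in the order below, 4, 3, 0 and 3 genes lay lower in every knockout than in every control. Of the 63, 3 were called, beside 3.82% of all tested named genes.

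The list of other epithelial ion transporters had 19 of 24 genes tested, 12 higher and 7 lower, with a median log2 difference of 0.37. Its 2 called genes went opposite ways. Atp1b1, the beta subunit of the sodium-potassium pump that drives all sodium-coupled transport, rose. It read 2.51 (marked), 0.99 and 1.68 in the controls and 3.27, 2.77 and 2.81 in the knockouts, a log2 difference of 1.61 without the marked spot (SE 0.29, limma adjusted p = 0.0468). Slc4a1, the chloride-bicarbonate exchanger of red blood cells and of the kidney, fell. It read -3.62, -3.92 and -4.07 in the controls and -5.85, -5.25 and -5.46 in the knockouts, well above background on 2 of 3 knockout arrays, a log2 difference of -1.65 (SE 0.22, limma adjusted p = 0.0269). With the marked spot kept, the Atp1b1 difference was 1.22. With 1 array left out, Atp1b1 was called in 1 of 4 fits, that without control 1. Its control 1 value was already left out as marked, so that fit removed none of its values. In the others its limma adjusted p reached 0.106. Slc4a1 was called in 2 of 6 fits, those without control 1 or knockout 2 (limma adjusted p up to 0.077 in the others).

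The potassium and chloride channel list had 15 of 17 genes tested, 11 higher and 4 lower, with a median of 0.80 and 0 called by limma. Of the list, 7 were higher and 3 lower at an unadjusted limma p under 0.05, beside 26.8% of all tested probes in either direction and 12.8% higher. Its 3 largest differences were those of Kcnj16, Best2 and Kcnq1. Kcnj16, an inward rectifier potassium channel subunit, differed by 3.91 (SE 0.81, limma adjusted p = 0.0513). It was well above background on 1 of 3 control arrays, so it passed the filter only through the knockouts and its other control values are bounds. Best2, a bestrophin anion channel of colonic goblet cells, differed by 3.19 (SE 1.08, adjusted p = 0.123). Kcnq1, the basolateral potassium channel that sustains chloride secretion, differed by 2.46 (SE 0.63, adjusted p = 0.0721).

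The sodium channel regulators had the highest median of the 4 lists, 1.32, with 12 of 15 genes tested, 10 higher, 2 lower and 0 called by limma (5 higher at an unadjusted p under 0.05, beside 12.8% of all tested probes). The largest were those of the membrane serine proteases Tmprss2 at 2.96 (SE 0.82, limma adjusted p = 0.0835) and Tmprss4 at 2.74 (SE 0.63, adjusted p = 0.0703). Next was Nr3c2, the mineralocorticoid receptor through which aldosterone acts, at 2.61 (SE 1.08, adjusted p = 0.194). Nr3c2 was not well above background in control 2, so that value is a bound and the probe passed the filter only through the knockouts.

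Among anchors, kinases and receptors of salt transport, 17 of 18 genes were tested, 10 higher and 7 lower, with a median of 0.47. The 1 called gene was Adora2b, an adenosine receptor that raises cyclic AMP and chloride secretion in the gut, and it fell. It read -3.66, -3.55 and -3.66 in the controls and -7.18, -6.29 and -5.09 in the knockouts, where it was well above background on 1 of 3 arrays. It thus passed the filter only through the controls, and the values of knockouts 1 and 2 are bounds. Its log2 difference was -2.56 (SE 0.49, limma adjusted p = 0.0446), and it was called in 1 of 6 fits with 1 array left out, the one without knockout 3 (adjusted p up to 0.119 in the others).

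**Figure D5:**
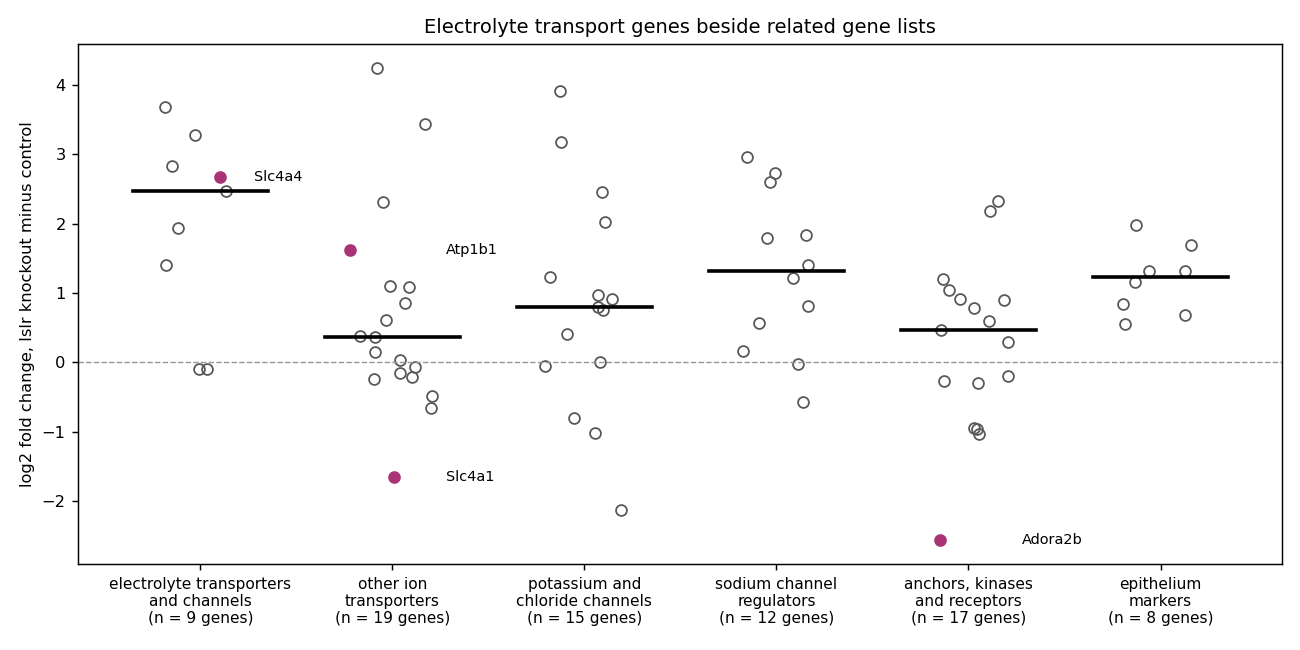
Log2 differences, Islr knockout minus control, of the tested genes in the transporter set, the 4 related lists and the epithelium markers, 1 point per gene, with the median of each as a bar and called genes filled and named. The 9 tested transporter genes have a median of 2.47, the related lists medians of 0.37 to 1.32 and the epithelium markers 1.24.

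For each member with usable values on all 6 arrays, the named gene whose probe followed it most closely was found among 13673 candidates by Pearson correlation of log2 values. The correlations are over 6 arrays that share the genotype split and the epithelial order above, and they are descriptions. Slc26a2 was nearest to Cyp2d11 (r = 0.999), Scnn1a to Lasp1 (r = 0.998), Slc4a4 to Taok3 (r = 0.998) and Cftr to Drd3 (r = 0.996). Scnn1g was nearest to Mettl24 (r = 0.992), Scnn1b to Gm4984 (r = 0.987) and Slc12a2 to Gria4 (r = 0.959). Slc26a3 and Atp12a lacked a usable value on knockout 1 and were given no nearest gene. Taok3, the nearest to the called member, read 1.54, 1.21 and 1.36 in the controls and 2.48, 2.06 and 1.99 in the knockouts, a log2 difference of 0.81 (limma adjusted p = 0.0641), smaller than that of Slc4a4 itself.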

How the data were processed

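Groups came from the genotype labels. The replicates are separate mice by the labels' design, numbered in accession order, so the numbers pair no mice. The deposited scanner files hold 1 spot intensity per probe on a linear scale, background-corrected by Agilent Feature Extraction, version 11.5.1.1 on design 074809, per the file headers; the submitters' processing notes name version 10.7. The labels name Cy3 and a green column, whereas the files hold the red channel alone, which was used. The deposited series value table follows the red signal of each array (r of at least 0.999999) and served as an alternative.

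Log2 values of the deposited intensity were taken relative to the 75th percentile of each array's non-control spots, 62976 spots being on an array. Marked spots were set missing in the tests and group means. A probe was tested when well above background on all 3 arrays of a group with at least 2 usable values in each. The test was limma 3.58.1 (lmFit and eBayes, R 4.3.3) with genotype as the only term. In the same fit on simulated data, 16%, 68%, 80% and 94% of changes of 1, 2, 3 and 4 on the log2 scale were recovered. There were 50 changes of each size among 35351 probes, with 7 false calls of 136. The simulated noise was independent between probes and had the same SD in both groups. Patterns shared across arrays and unequal spreads, as in the members, were not simulated, so these rates do not carry over to them. Probes were named through RefSeq accessions, which matched 33767 of 56605 probes and 23462 genes. A gene with several probes is represented in lists by its tested probe of highest mean. No spot was saturated. The number of arrays limits the precision.

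Promoter sequence was found for 6 of the 10 genes, in 7 windows, from the RefSeq table of GRCm38.p6, whose 50 bases after each start were left out. Members, lists and markers were chosen with earlier results of these data known, and none is independent support. The text names all members, Islr, in each related list the called genes or otherwise the 3 with the largest difference, and the nearest gene of each member; marker genes named besides are examples chosen after their values were seen. Alternatives were background correction, centring, quantile normalization, the filter, marked spots kept, array weights, the value table and leaving out each array; centring on the epithelium markers was added after the data were seen.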

Additional observations from a re-analysis of the deposited data

How the results depend on the processing

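No paired analysis was possible because the replicate numbers follow accession order and pair no mice. Of the single-probe comparisons, 178 kept direction and side of the threshold, 21 gained the call, 22 lost it and 11 changed sign. The 2 called transporter probes became 9 with array weights, 1 with marked spots kept, 0 without the filter on dim probes (more probes tested) and 1 with each array centred on the epithelium markers; without 1 array they ranged from 0 to 8, the 8 being without control 1, and 0 remained without control 2, control 3, knockout 1 or knockout 3. With marked spots kept, the fits without 1 array gave 0 to 7. The counts without control 1 include Scnn1g and the dimmer Slc26a2 probe, whose remaining control values are bounds. The members' median of 2.47 became 1.26 after epithelium centring. The 3 called genes of the related lists became 36 with array weights, 5 with median centring, 8 with normexp and quantile normalization, 1 without the filter, 10 after epithelium centring, and 0 to 15 without 1 array, 10 and 15 being without control 1 with marked spots left out and kept. After epithelium centring the medians of the 4 lists were -1.06 for other epithelial ion transporters, -0.45 for potassium and chloride channels, 0.10 for sodium channel regulators and -0.74 for anchors, kinases and receptors; without 1 array the first ranged from 0.091 to 0.49 and the second from 0.39 to 0.98. The probes that changed sign were never called: Scnn1b was 0.034 with array weights and -0.20 to 0.077 without 1 array, Slc12a2 was 0.032 with array weights, and A_66_P119584 of Scnn1a was -1.11 after epithelium centring and -0.19 to 0.31 without 1 array. Over all probes, 1403 were called, 39.1% of them higher; array weights gave 9292 with 49.4% higher, epithelium centring 2998 with 2.33% higher, median centring 2249, normexp 2773, quantile normalization 2185, no filter 484, and fits without 1 array 40 to 2114. The brighter Slc4a4 probe was called in 6 and the dimmer in 5 of the 7 alternatives planned with all arrays, neither without the filter (adjusted p = 0.066 and 0.068), and neither after the added epithelium centring (0.139 and 0.445). The cause of these changes was not tested.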
